A study of Mus musculus with 26 samples.

Results

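The 9 diacylglycerol kinase genes Dgka, Dgkb, Dgkd, Dgke, Dgkg, Dgkh, Dgki, Dgkq and Dgkz were followed across cultured mouse neural stem cells carrying MYB and QKI constructs. They are 9 of the 23152 genes with array probe sets of their own, and each was read by 16 to 30 probe sets whose annotation names no other gene, 203 in all. The family was selected on the Dgkg log2 differences between MYB constructs and eGFP in these same arrays. Differences between MYB constructs and eGFP therefore chose the members. Their values are given below as a description, and where calls of the fit are counted, the share called over the array stands beside them and nothing is read from the count. The other comparisons were not used in that choice and were tested.

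Diacylglycerol kinases add a phosphate to diacylglycerol, a membrane lipid released when phospholipase C cuts phosphoinositides, and so turn it into phosphatidic acid. The reaction ends the signal that diacylglycerol gives to protein kinase C, chimaerins and Ras exchange factors, and it starts one through phosphatidic acid, which also feeds the resynthesis of phosphoinositides. The family is sorted by regulatory domains. Type I enzymes (Dgka, Dgkb, Dgkg) bind calcium through EF hands, type II (Dgkd, Dgkh) carry a pleckstrin homology domain, type III (Dgke) has the plainest domain layout and prefers diacylglycerol with an arachidonoyl chain, type IV (Dgki, Dgkz) carries ankyrin repeats, and type V (Dgkq) has an extra cysteine-rich domain. Brain tissue expresses many of them, and Dgkb, Dgkg and Dgki are best known from neurons.

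All cells were neural stem cells taken from wild-type C57BL6 mouse embryos at stage E14.5, and every group received a lentiviral over-expression construct. In the pool set, 5 groups over-expressed eGFP (the control, a green fluorescent protein), MYBtr, MYBQKI5, MYBQKI6 or QKItr, each in pools 1, 2 and 3. The labels do not spell out "tr". MYB is a DNA-binding transcription factor and QKI an RNA-binding protein, and MYBQKI5 and MYBQKI6 are named as fusions of MYB with 2 QKI forms. Each eGFP pool was measured on 2 arrays, which were averaged before any comparison. In the suppression set, all 8 samples over-expressed MYBQKI6, and 5 of them were labelled as having wild-type Qk suppressed and 3 as having the control target LacZ suppressed. The labels do not call pools or numbered samples separate animals or cultures, and each p-value then reflects only how far these samples spread, which may be technical.

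Values are log2 signals on an Affymetrix array. A difference of 1 is a doubling, and a gene's value is the mean of its probe sets. Array medians ranged from 5.61 to 5.74 for the pool arrays and from 5.39 to 5.51 for the suppression arrays. Since the sets look separately scaled, no level is compared between them, and signal is not compared between members. The marker counts below do set single genes against the median gene. Pool 1 stood apart from the other pools for 4 of the 9 members. In the suppression set the samples with title number 1 stood apart for Dgkg, Dgki, Dgke and Dgkz, as the values below show. In eGFP cells, 9 of 10 neural stem cell and radial glia markers lay above the median gene (4.99), against 0 of 6 endothelial and mural, 1 of 5 microglia and blood, and 2 of 6 neuronal markers. Astrocyte markers did so in 4 of 5 cases, oligodendrocyte-lineage markers in 3 of 6 and fibroblast markers in 1 of 4. The Myb probe sets read 4.30 to 5.18 in eGFP cells, 4.60 to 5.34 with QKItr and 6.80 to 7.89 with the MYB constructs, as labelled. Qk read 9.30 to 9.70 in samples labelled Qk-suppressed and 9.68 to 9.74 in LacZ samples, so the groups overlap. The means were 9.48 and 9.70. Qk in Qk-suppressed less LacZ samples gave −0.17, −0.35 and −0.22 within title numbers 1, 2 and 3. The difference did not pass the test with limma in the fit that leaves the numbers unpaired (adjusted p = 1).

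MYB proteins bind DNA around the core letters AACTG or AACGG, so the 250 bases before the RefSeq start sites were read for those letters on both strands. The motifs cannot occupy the same bases, and no other motif was searched. All 9 members have at least 1 such window in the RefSeq table for build GRCm38.p6, and either motif occurs in 48.6% of all 32851 windows of that length, most often as AACTG (39.1%). The windows of Dgkg and Dgki are shown because these genes differed most between the constructs, and that of Dgkb as a close relative of Dgkg with matches. Each line reads 5′ to 3′ along the gene, with the last base just before the start. Capitals mark AACTG or its reverse complement CAGTT.
Dgkg, chr16:22657232-22657481, minus strand: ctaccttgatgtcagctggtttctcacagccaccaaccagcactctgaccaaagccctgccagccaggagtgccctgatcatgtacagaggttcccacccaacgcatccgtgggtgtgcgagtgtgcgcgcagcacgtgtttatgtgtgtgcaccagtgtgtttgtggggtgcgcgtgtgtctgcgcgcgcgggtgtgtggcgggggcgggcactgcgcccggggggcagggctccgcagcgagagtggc
Dgki, chr6:37299977-37300226, minus strand: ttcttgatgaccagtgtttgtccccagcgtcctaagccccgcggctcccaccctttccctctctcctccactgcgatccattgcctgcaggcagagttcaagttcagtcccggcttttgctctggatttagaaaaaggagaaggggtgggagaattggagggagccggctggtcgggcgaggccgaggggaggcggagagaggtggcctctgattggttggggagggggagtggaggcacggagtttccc
Dgkb, chr12:37879924-37880173, plus strand: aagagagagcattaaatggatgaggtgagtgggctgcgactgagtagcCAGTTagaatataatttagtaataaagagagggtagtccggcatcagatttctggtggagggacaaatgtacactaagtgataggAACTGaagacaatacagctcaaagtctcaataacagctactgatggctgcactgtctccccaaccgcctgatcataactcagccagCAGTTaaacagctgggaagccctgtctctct
The Dgkg and Dgki windows hold neither motif. The Dgkb window holds AACTG 3 times, at 202, 117 and 31 bases before the start. Of the others, 1 of 4 windows of Dgka, 2 of 3 of Dgkh and 1 of 2 of Dgkz hold a match, and the single windows of Dgkd, Dgke and Dgkq hold none. A match here is a run of letters and not a binding site, and its absence says only that these letters are not in the window. G and C make up 64.8% of the Dgkg window, 60.8% of the Dgki window and 45.6% of the Dgkb window.

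Dgkg encodes the gamma kinase, a calcium-binding type I enzyme. In eGFP cells it read 7.41, 7.39 and 7.54 in pools 1, 2 and 3. With MYBtr it read 10.34, 10.15 and 9.10, with MYBQKI5 9.84, 9.88 and 9.88, and with MYBQKI6 10.51, 10.50 and 9.64. All 9 pools with a MYB construct lay above all 3 eGFP pools, in comparisons that chose the gene. QKItr pools read 7.40, 7.08 and 7.34 and lay within or below the eGFP range. Group means were 7.45 ± 0.08 (SD, n = 3) for eGFP, 9.86 ± 0.67 for MYBtr, 9.87 ± 0.02 for MYBQKI5, 10.22 ± 0.50 for MYBQKI6 and 7.28 ± 0.17 for QKItr. In order of mean level the groups ran QKItr, eGFP, MYBtr, MYBQKI5 and MYBQKI6, and only the step from eGFP to MYBtr left no overlap between neighbouring groups. Dgkg was 5.34-fold higher with MYBtr than with eGFP (log2 difference 2.42, 95% interval 1.82 to 3.02), 5.36-fold with MYBQKI5 (2.42, 1.82 to 3.02) and 6.84-fold with MYBQKI6 (2.77, 2.17 to 3.37). Among the 23152 genes ranked by their rise with MYBtr it stood at place 16. Pool 3 gave the smallest rise in each MYB construct, 1.56, 2.34 and 2.10 on the log2 scale against 2.43 to 3.12 in pools 1 and 2. In bulk RNA, fewer cells expressing a gene and less of its RNA per cell cannot be told apart.

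**Figure D1:**
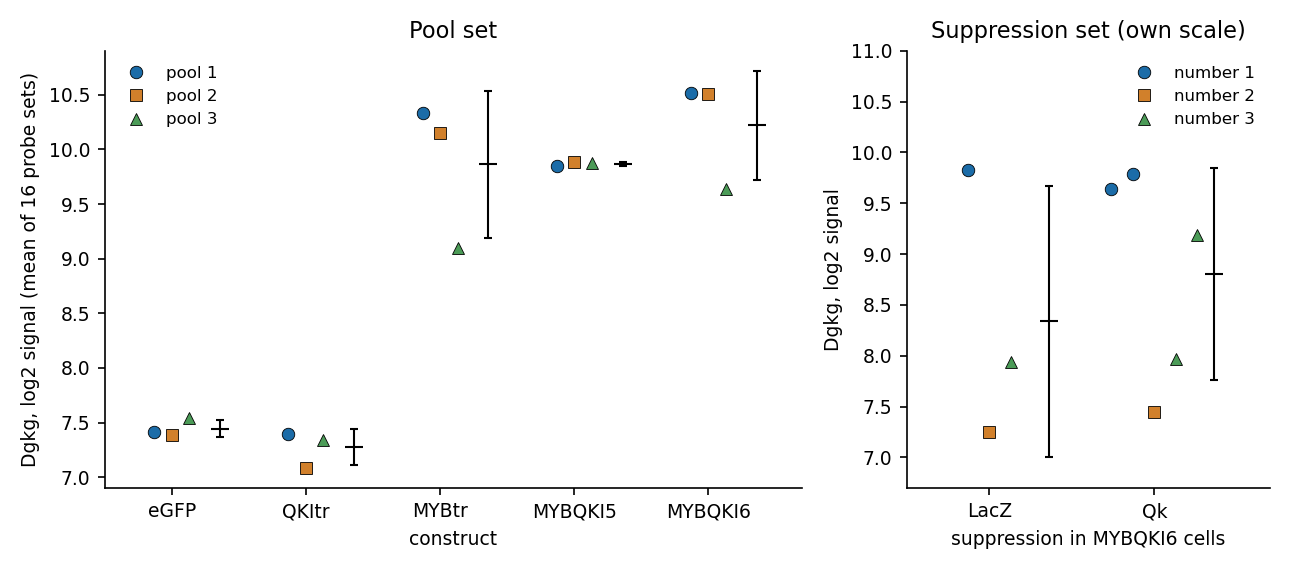
Dgkg log2 signal in each column of the pool set (left, 5 constructs, marker shape and colour give the pool) and of the suppression set (right, own scale, marker gives the title number), with bars for mean and SD. The 9 MYB-construct columns lie between 9.10 and 10.51, above every eGFP and QKItr column. In the suppression set the groups overlap, and the number 1 samples lie above all others.

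The 2 arrays of each eGFP pool differed by 0.07, 0.36 and 0.03 for Dgkg. Of the variation of Dgkg over the 15 pool-set columns, 94.5% lay between constructs and 1.66% between pools.

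The same pattern stood in nearly all Dgkg probe sets. Of 16 probe sets, 15 were higher in all 3 pools with each of MYBtr, MYBQKI5 and MYBQKI6 than in the eGFP column of the same pool. Taken one by one over all 269751 probe sets, 13, 13 and 14 of them were called higher (adjusted p under 0.05). Over the array 0.185%, 0.0652% and 0.113% of probe sets were called in those comparisons. Since the comparison chose the gene, nothing is read from that contrast. The probe set with the largest rise, 17329331, read 4.98, 5.12 and 5.85 in eGFP pools 1 to 3, and 8.75, 8.91 and 7.25 with MYBtr. It read 8.39, 8.78 and 8.66 with MYBQKI5 and 9.39, 9.30 and 8.29 with MYBQKI6, and so was higher in every MYB column. The exception was 17329344, with 9.24, 9.10 and 9.42 in eGFP cells and 9.15, 8.98 and 8.98 with MYBtr. With MYBQKI5 that probe set averaged 9.36 ± 0.36 and with MYBQKI6 9.32 ± 0.38 (SD, n = 3), so its groups overlap. Another bright probe set, 17329328, rose less than the others, from 9.21 ± 0.54 in eGFP cells to 10.36 ± 0.35, 10.26 ± 0.14 and 10.33 ± 0.65 with MYBtr, MYBQKI5 and MYBQKI6.

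**Figure D2:**
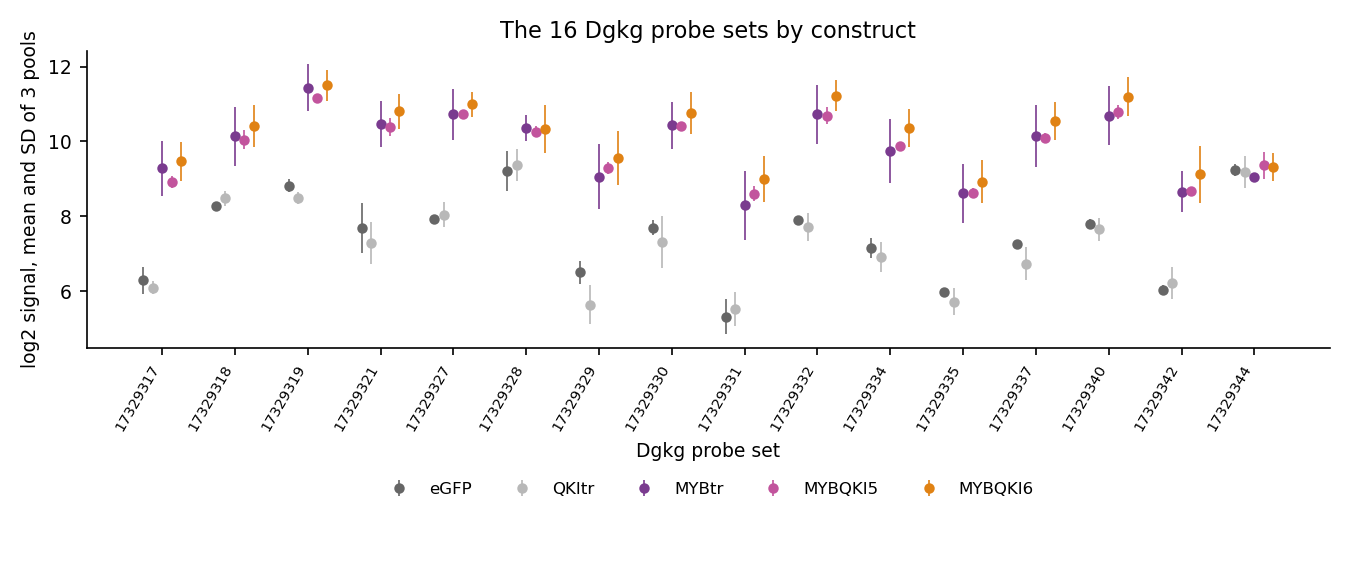
Mean log2 signal and SD over 3 pools of each of the 16 Dgkg probe sets (x axis, array identifier) for the 5 constructs. In 15 probe sets the MYB-construct means lie above those of eGFP and QKItr; in 17329344 they all lie between 9.04 and 9.36.

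Dgkg did not pass the test between QKItr and eGFP or between any MYB constructs. The QKItr difference from eGFP was −0.17 (standard error 0.28, 95% interval −0.77 to 0.43, limma adjusted p = 1), and 1 of 16 probe sets was higher and 4 were lower in all 3 pools. MYBQKI5 and MYBtr had the same mean level to 0.01, with an interval of −0.59 to 0.60. Their pools differed in both directions, by −0.49, −0.27 and 0.78. MYBQKI6 exceeded MYBtr by 0.36 (−0.24 to 0.96), in 3 of 3 pools, and MYBQKI5 by 0.35 (−0.25 to 0.95), in 2 of 3 pools (adjusted p = 1 for each). Without pool 3 of MYBtr, the difference of MYBQKI5 from MYBtr was −0.38 and that of MYBQKI6 from MYBtr −0.03. Differences of up to about a doubling between the MYB constructs are within these intervals.

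Dgkb encodes another calcium-binding type I kinase, known from neurons. In eGFP cells it read 6.86, 6.35 and 6.53. With QKItr it read 7.60, 6.93 and 6.60, higher than eGFP in the same pool in 3 of 3 pools, though the groups overlap. The difference was 0.47 (standard error 0.21, 95% interval 0.01 to 0.92, limma adjusted p = 1). Values with MYBtr were 7.05, 7.00 and 7.10, with MYBQKI5 6.85, 6.72 and 7.00, and with MYBQKI6 7.06, 7.06 and 6.78, which gives differences of 0.47, 0.28 and 0.39 from eGFP. So the Dgkb mean sat a little higher in all 4 construct groups than in eGFP cells, but Dgkb was called with none of them. In pool 1, MYBQKI5 (6.85) was not above eGFP (6.86).

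Dgka, the remaining type I gene, encodes the alpha kinase that damps diacylglycerol signals in T cells. It varied more with the pool than with the construct, though less so in 2 of the groups. eGFP pools read 7.73, 8.49 and 8.35, and MYBQKI5 pools 7.53, 8.25 and 8.48. With QKItr the pools read 7.49, 8.67 and 8.26. The spread over pools was narrower with MYBtr (8.13, 8.17 and 8.32) and MYBQKI6 (8.08, 8.27 and 8.34). Pool 1 was the lowest in each of these, and 66.1% of the variation lay between pools against 2.49% between constructs. Its differences from eGFP were 0.02, −0.11 and 0.04 with MYBtr, MYBQKI5 and MYBQKI6.

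Dgkd and Dgkh, the type II genes, encode the delta and eta kinases, which act on receptor tyrosine kinase signalling. Dgkd read 7.80, 8.69 and 8.54 in eGFP pools and 7.61, 8.66 and 8.47 with QKItr. With MYBQKI6 it read 7.67, 7.90 and 8.03, so pools 2 and 3 were lower than in eGFP cells and pool 1 differed little. MYBtr pools read 7.78, 8.07 and 8.29, and MYBQKI5 pools 7.53, 8.09 and 8.01. The Dgkd differences from eGFP were −0.30 with MYBtr, −0.47 with MYBQKI5 and −0.48 with MYBQKI6, and 24, 24 and 23 of its 24 probe sets had a negative difference. The groups overlap because pool 1 was low under every construct, and 59.0% of the variation of Dgkd lay between pools. Dgkh gave eGFP values of 6.06, 7.03 and 6.77 and ran from 5.90 to 6.92 with QKItr and from 5.93 to 6.87 with the MYB constructs. Pools took 68.6% of its variation and constructs 6.50%.

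Dgke encodes the epsilon kinase, the type III enzyme of phosphoinositide resynthesis. It read 5.59, 5.74 and 5.26 in eGFP cells and between 5.20 and 6.00 in the other pool-set columns, so its groups overlap throughout. Pools took 66.9% of its variation. Pool 2 was the highest of the 3 under every construct.

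Dgki encodes the iota kinase, a type IV enzyme with ankyrin repeats that is best known from neurons. It read 6.43, 6.60 and 6.46 in eGFP pools and 6.34, 6.69 and 6.31 with QKItr. MYBtr pools read 5.37, 5.87 and 5.97, MYBQKI5 pools 5.50, 6.21 and 6.16, and MYBQKI6 pools 5.68, 5.99 and 5.84. All 9 MYB-construct values lay below all 3 eGFP values, and below the 3 QKItr values. The share of all genes that separate in this way is not given here, so nothing is read from the separation. The log2 differences from eGFP were −0.76 (95% interval −1.19 to −0.33) with MYBtr, −0.54 (−0.97 to −0.11) with MYBQKI5 and −0.66 (−1.09 to −0.23) with MYBQKI6, and −0.05 (−0.48 to 0.38) with QKItr. Constructs took 69.3% of its variation and pools 19.7%. Of its 30 probe sets, 21, 12 and 16 were lower in all 3 pools with MYBtr, MYBQKI5 and MYBQKI6, and none was called. With the highest-mean probe set in place of the mean over probe sets, the MYBQKI5 difference of Dgki was −0.24. Between the MYB constructs Dgki differed by 0.22 (MYBQKI5 less MYBtr, −0.21 to 0.65), 0.10 (MYBQKI6 less MYBtr) and −0.12 (MYBQKI6 less MYBQKI5), with limma adjusted p = 1 for each.

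In the pool set, lists of glial markers moved alongside Dgki. The mean of the 6 oligodendrocyte-lineage markers ran from 6.34 to 6.54 over the eGFP pools and from 6.03 to 6.30 over the MYB-construct pools. The mean of the 5 astrocyte markers ran from 5.81 to 6.24 in eGFP cells and from 5.14 to 5.83 with MYB constructs. The neuronal list ran from 5.05 to 5.29 and from 4.98 to 5.50. In the suppression set the oligodendrocyte-lineage list ran from 5.85 to 6.03 in samples with title number 1 and from 5.86 to 6.05 in the rest. The astrocyte list ran from 4.69 to 5.04 and from 5.13 to 5.49, and the neuronal list from 4.76 to 4.95 and from 4.81 to 5.08. The part of these lists in the Dgki and Dgkg differences was not tested.

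Dgkz, the other type IV gene, encodes the zeta kinase that restrains Ras exchange factors. It showed the plainest pool pattern. In eGFP cells it read 6.73, 8.10 and 7.81, and with QKItr 6.72, 8.06 and 7.92. Pool 1 was lowest under every construct, down to 6.69 with MYBQKI6, and pools took 81.6% of the variation. Its differences from eGFP spanned 0.06 with MYBtr to −0.31 with MYBQKI6. Dgkq encodes the theta kinase, the type V enzyme, and was read between 4.75 and 5.50 over the 15 columns, with 59.7% of its variation in neither constructs nor pools. The 2 eGFP arrays of pool 1 gave 5.25 and 4.27 for Dgkq, the widest gap between repeats in the family.

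**Figure D3:**
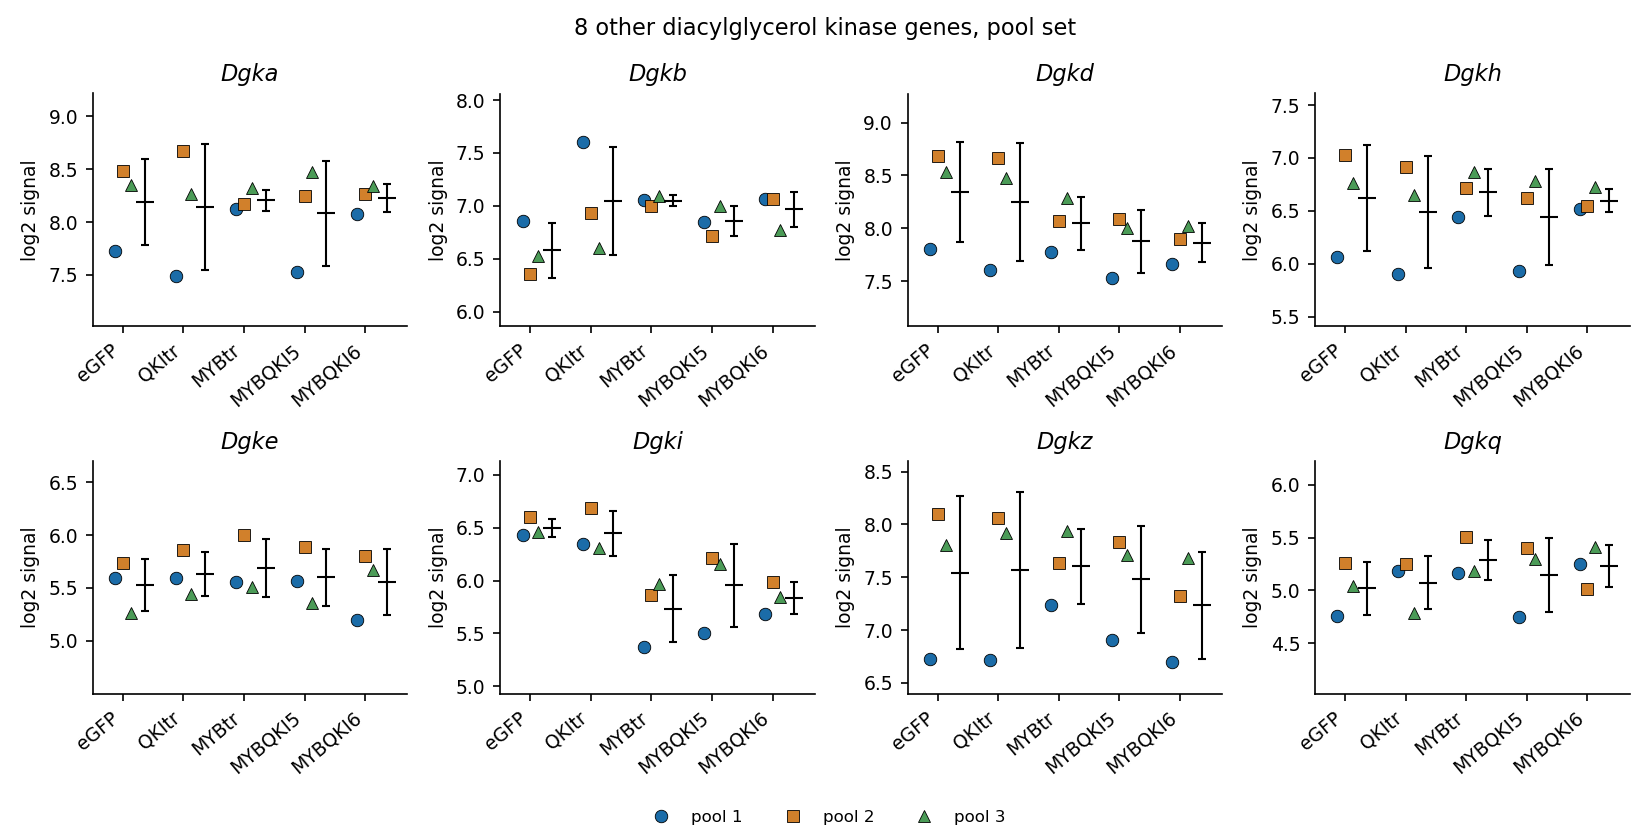
Log2 signal of the 8 members other than Dgkg in the 15 pool-set columns, by construct, with marker shape and colour for the pool and bars for mean and SD over 3 pools; each panel spans 2.2 log2 units. In Dgki every MYB-construct point lies below every eGFP point, while Dgka, Dgkd, Dgkh and Dgkz show pool 1 low under most constructs.

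Counted over the family, 1 of 9 members, Dgkg, was called in each comparison of a MYB construct with eGFP. Over all genes 1.37% were called with MYBtr, 0.199% with MYBQKI5 and 0.765% with MYBQKI6. In a fit with the pool as a replicate block, 2 of 9 members were called with MYBtr and with MYBQKI6 (Dgkg higher, Dgki lower) and 1 of 9 with MYBQKI5, while 5.97%, 4.39% and 2.63% of all genes were. Nothing is read from these counts, since the comparisons chose the members. The median difference over the 9 members was 0.06, −0.06 and 0.03 with MYBtr, MYBQKI5 and MYBQKI6, against −0.014, −0.007 and −0.005 over all genes.

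In the 4 construct comparisons that did not choose the members, none of the 9 was called, with the block or without. For QKItr against eGFP, MYBQKI5 against MYBtr, MYBQKI6 against MYBtr and MYBQKI6 against MYBQKI5, limma called 0% of the 23152 genes in each, with 362, 849, 604 and 404 genes at an unadjusted p under 0.05. The 8 members other than Dgkg spanned −0.13 to 0.47 for QKItr against eGFP, −0.23 to 0.22 for MYBQKI5 against MYBtr, −0.37 to 0.10 for MYBQKI6 against MYBtr and −0.25 to 0.15 for MYBQKI6 against MYBQKI5. Their 95% intervals reached from −1.25 to 0.92 without the block and from −0.73 to 0.85 with the pool as a block. Differences of the latter size lie within what these samples leave possible even with the pools paired.

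**Figure D4:**
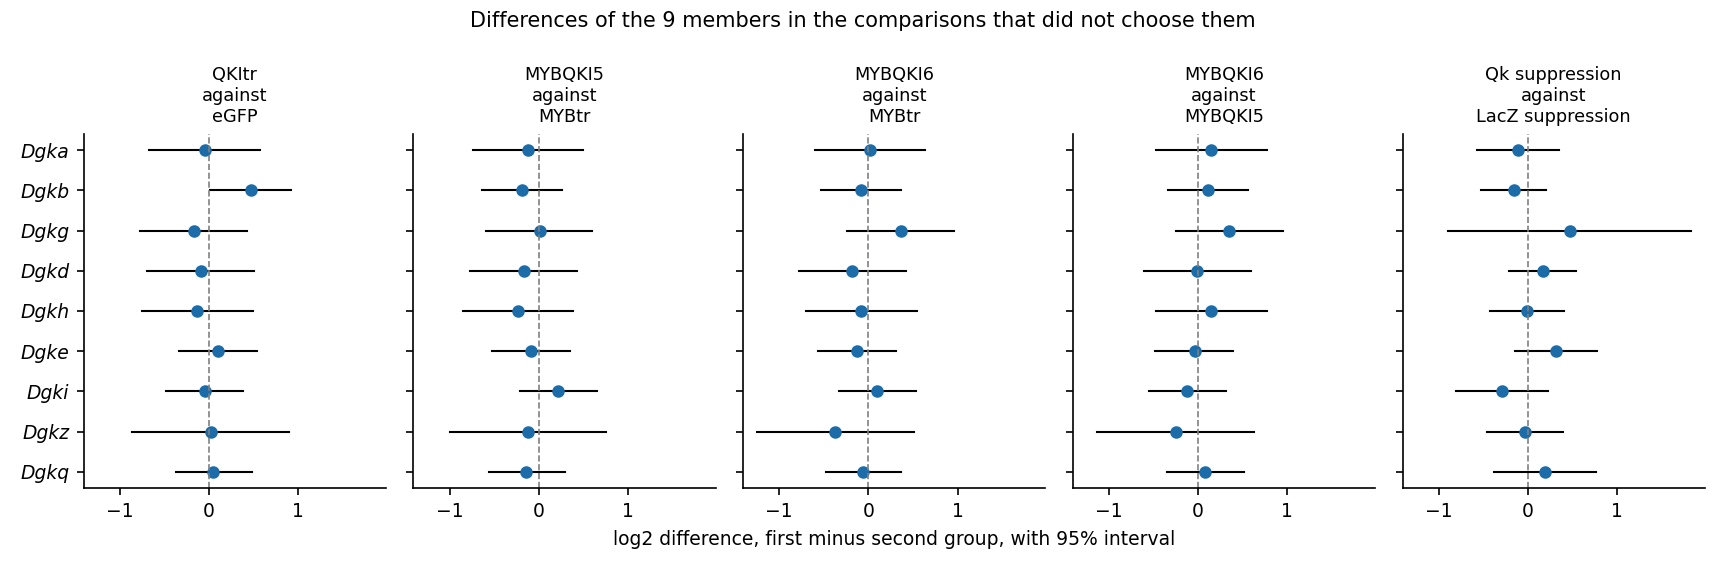
Log2 difference of each of the 9 members with its 95% interval (limma, without the block) in the 5 comparisons not used to choose them. The dashed line is no difference. The widest interval is that of Dgkg under Qk suppression, from −0.89 to 1.83, and only the Dgkb interval for QKItr against eGFP (0.01 to 0.92) leaves out 0.

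Samples labelled Qk-suppressed were compared with LacZ samples, all over-expressing MYBQKI6. Qk itself averaged 9.48 and 9.70 in these groups, with overlapping ranges. The comparison therefore cannot say whether a clear loss of Qk alters these genes. No member was called (0 of 9), against 1 of 23152 genes or 0.00432% (946 genes had an unadjusted p under 0.05). Dgkg read 7.44, 9.64, 7.97, 9.79 and 9.19 in the Qk-suppressed samples numbered 5_2, 6_1, 6_3, 9_1 and 9_3, and 9.83, 7.25 and 7.94 in LacZ samples 1, 2 and 3. The groups overlap over almost their whole range. The difference was 0.47 (standard error 0.62, 95% interval −0.89 to 1.83, limma adjusted p = 1). It was 0.25 with the number as a block (−0.30 to 0.79), −0.08 without LacZ sample 2 and 1.21 without LacZ sample 1.

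Dgkg instead stood apart in the samples with 1 as the second number in the title, whatever was suppressed. The 3 samples with number 1 read 9.64, 9.79 and 9.83. Number 2 samples read 7.25 and 7.44, and number 3 samples 7.94, 7.97 and 9.19. The 9.19 was sample 9_3, nearer to number 1 than to the other number 3 samples. Sample 9_1, which shares its first number, read 9.79. Number 1 lay above all others. Within numbers 1, 2 and 3, Qk-suppressed less LacZ samples gave −0.12, 0.19 and 0.64. Myb read 6.20 to 6.79 over the 8 samples and was 6.24, 6.69 and 6.27 in number 1. The labels do not say what the number stands for, and the split was seen in the data, so it is given without a test. The probe set 17329331 ran from 5.28 to 8.57 over the 8 samples, while 17329344 ran from 8.55 to 9.36.

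Dgki split by number in the direction opposite to Dgkg. Number 1 samples read 4.39, 4.59 and 4.60, and the other 5 read 4.96 to 5.50. Qk suppression gave −0.29 (standard error 0.24, 95% interval −0.81 to 0.23, adjusted p = 1 by limma), with −0.11, −0.54 and −0.16 within the numbers. The Pearson correlation of Dgki with Dgkg was −0.832 over the 15 pool-set columns and −0.811 over the 8 suppression samples. The columns are not independent points, since pools are shared between constructs and same-numbered samples deviated together, and no p is given. The pool-set columns also include the MYB and eGFP columns that chose the family. The share of all genes with such a correlation was not counted, so nothing is read from the Dgki correlations. The correlation with Dgkg was of unlike size or sign between the sets for most other members. Dgke correlated at 0.0468 and 0.904, Dgkz at −0.23 and 0.781, and Dgkb at 0.251 and −0.692. Dgkd and Dgkq kept their sign, at −0.555 and −0.228 and at 0.331 and 0.664, and Dgka and Dgkh lay at −0.0346 and 0.347 and at −0.039 and 0.258. Dgke read 5.73 to 5.97 in number 1 samples and 5.05 to 5.66 in the rest. For Dgkz these ranges were 7.28 to 7.46 and 6.81 to 7.14, so the split by number was not particular to Dgkg and Dgki.

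**Figure D5:**
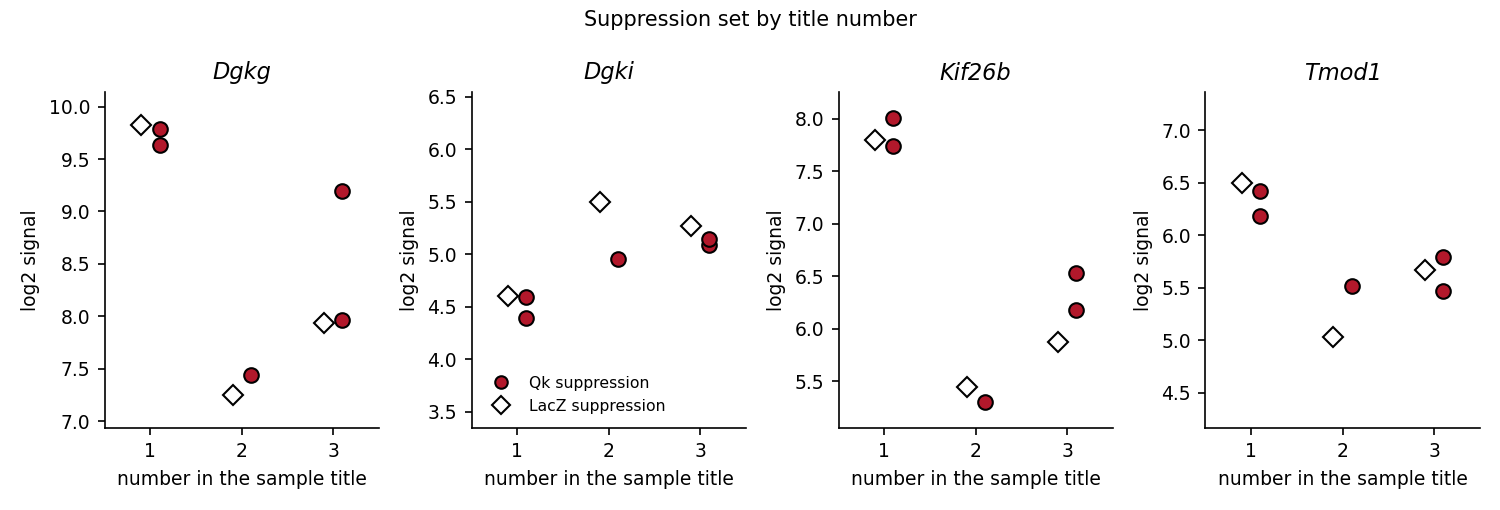
Log2 signal of Dgkg, Dgki, Kif26b and Tmod1 in the 8 suppression-set samples against the second number of the sample title, with filled circles for Qk and open diamonds for LacZ suppression; each panel spans 3.2 log2 units. Number 1 samples are highest for Dgkg, Kif26b and Tmod1 and lowest for Dgki in both groups. Kcnh7, not drawn, read 5.24 to 5.41 in number 1, and sample 9_3 also read 5.41.

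The remaining members ran close to each other in the suppression set. Dgka read 6.76 to 7.44 with Qk suppressed and 6.82 to 7.55 with LacZ, Dgkb 5.98 to 6.51 and 6.29 to 6.67, and Dgkd 6.76 to 7.18 and 6.41 to 6.98. Dgkh read 5.67 to 6.21 and 5.72 to 6.34, Dgkz 6.83 to 7.46 and 6.81 to 7.40, and Dgkq 4.81 to 5.59 and 4.37 to 5.55. Each pair of ranges overlaps. Without the block, the 8 members other than Dgkg differed by −0.29 to 0.32 between the groups, with intervals reaching from −0.81 to 0.78. With the number as a block they differed by −0.24 to 0.28, with intervals reaching from −0.56 to 0.59.

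The 5 named genes with the highest correlation to Dgkg over the 15 pool-set columns were Kif26b (0.990), Kcnh7 (0.977), Casq2 (0.975), Tmod1 (0.970) and Tmem108 (0.969). They encode a kinesin-family protein, a potassium channel, a calcium store protein of muscle, an actin filament cap and a membrane protein of neurons. Kif26b averaged 5.01 with eGFP, 4.90 with QKItr and 7.33, 7.38 and 7.39 with MYBtr, MYBQKI5 and MYBQKI6. Over the 8 suppression samples the correlation with Dgkg was 0.960 for Kif26b, 0.925 for Tmod1 and 0.910 for Kcnh7, but 0.0471 for Tmem108 and −0.61 for Casq2. So 3 of the 5 also had a high correlation with Dgkg there. The share of all genes with such a correlation was not counted. Same-numbered samples also deviated together, so nothing is read from the 3 of 5. Myb itself correlated with Dgkg at 0.944 in the pool set and −0.274 in the suppression set.

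Around the kinases, 69 genes of 6 lists were measured: phospholipases C, other enzymes that use diacylglycerol, effectors with a diacylglycerol-binding C1 domain, enzymes that make or remove phosphatidic acid, genes of phosphoinositide resynthesis, and other lipid kinases. With MYBtr, 1 of 69 rose and 2 fell, and with MYBQKI6 1 rose and 1 fell, where 1.37% and 0.765% of all genes were called. With MYBQKI5, and in the 4 other pool-set comparisons and the Qk comparison, none passed the test. Plch1, a phospholipase C that releases diacylglycerol, averaged 4.76 with eGFP and rose with MYBtr by 1.07 (adjusted p = 0.032, pools 1.05, 1.60 and 0.56). With MYBQKI6 its rise was 1.26 (limma adjusted p = 0.022). Lpin1, a lipin that turns phosphatidic acid back into diacylglycerol, averaged 9.56 with eGFP and fell by 1.05 under MYBtr (limma adjusted p = 0.013). Under MYBQKI6 it fell by 0.89 (adjusted p = 0.037). Pitpnc1, a phosphatidylinositol transfer protein, fell by 0.64 with MYBtr (adjusted p = 0.045). In the fit with the pool as a block, 4 rose and 9 fell with MYBtr, 2 rose and 4 fell with MYBQKI5, and 4 rose and 7 fell with MYBQKI6, where 5.97%, 2.63% and 4.39% of all genes were called. Under MYBtr that fit added Lpin3 (1.23), Lpin2 (0.46) and Prkca (0.45), a protein kinase C, among the higher genes. Among the lower ones it added the phospholipase D gene Pld1 (−0.71), the lipid phosphatase gene Plpp3 (−1.51) and the chimaerin genes Chn1 (−0.41) and Chn2 (−1.24). It also added the phospholipase C genes Plcb1 (−0.49) and Plce1 (−0.72), which were lower while Plch1 was higher, and the protein kinase D gene Prkd3 (−0.49). With MYBQKI5 the 6 genes were Plch1 (0.87) and Lpin3 (0.86) on the higher side and Lpin1 (−0.82), Pld1 (−0.70), Pitpnc1 (−0.58) and Chn1 (−0.56) on the lower side. With MYBQKI6 the block fit added Lpin3 (1.05), Lpin2 (0.50) and Prkca (0.49) as higher. As lower it added Chn2 (−1.30), Prkcb (−1.10), another protein kinase C, Pld1 (−0.75), Chn1 (−0.65), Pitpnc1 (−0.58) and Prkd3 (−0.50).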

How the data were processed

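The labels give total RNA, biotin labelling and the standard Affymetrix protocol. The deposited values were log2 signals per probe set, already normalized by the authors by a method not given in the sources used here. The 26 arrays hold 269751 probe sets. Of these, 233753 name 1 gene, 5106 several and 30892 none in the platform annotation, whose symbols were updated where RefSeq allowed. Gene values are means over a gene's own probe sets, and eGFP repeats were averaged. Differences were tested with limma 3.58.1 (R 4.3.3; lmFit, eBayes) over all genes of a set, with Benjamini-Hochberg adjustment and a threshold of 0.05. The code was tested on simulated data. Probe signal limits precision, and the number of arrays per group is small.

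The members and gene lists were chosen with earlier results of these data known. All 9 members are named, with every list gene called without the block, up to 6 per comparison, and the 5 genes most correlated with Dgkg, leaving out unnamed gene models; genes called only with the block were added after their values were seen. Same-numbered samples deviated together from their group means (r 0.311 to 0.723 over 30 pool-set pairs and 0.222 to 0.568 over 5 suppression pairs), so the number was taken as pairing the samples and a fit with a replicate block stands beside the unblocked one where it changes a call. Alternatives covered probe-set summary, scaling, a signal filter, eGFP repeats, groups fitted, intensity trend, the block and leaving out each replicate.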

Additional observations from a re-analysis of the deposited data

Results flagged for a closer look

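Of 18 member groups large enough to look for a sample far from the others (eGFP arrays and Qk-suppressed samples), 1 stood out. In the 6 eGFP arrays Dgkq read 4.27 on the second array of pool 1, apart from the nearest array at 5.00, a gap of 0.705 of the range. Chance flags about 1 in 20 groups of independent values. The eGFP arrays are paired repeats of a pool and Qk-suppressed samples share title numbers, so that rate need not hold here.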

How the results depend on the processing

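In the MYB constructs against eGFP, Dgkg stayed higher in all 17 alternatives of each comparison, with differences of 2.18 to 2.80 (MYBtr), 2.34 to 2.48 (MYBQKI5) and 2.63 to 3.06 (MYBQKI6). The Dgkg rise in these same arrays chose the family, so nothing is read from its staying higher. The number of members called changed from 1 to 2 with the replicate block for MYBtr and for MYBQKI6 and in no other alternative. Of 45 member differences in the 5 tested comparisons, 35 changed sign in at least 1 alternative, the largest of them 0.47, and none of 702 fits called any. For Dgkg, MYBQKI5 less MYBtr was −0.04 with the median of the probe sets, −0.27 with the brightest probe set and −0.38 to 0.24 leaving out replicates; MYBQKI6 less MYBtr ran from −0.03 to 0.65, and Qk less LacZ suppression from −0.08 to 1.21. With the brightest probe set, MYBQKI6 less MYBtr was −0.10 for Dgki and 0.02 for Dgkb, and Qk less LacZ suppression was 0.80 for Dgkb. Leaving out replicates, Dgki ran from −0.17 to 0.02 for QKItr less eGFP, from −0.08 to 0.22 for MYBQKI6 less MYBtr and from −0.35 to 0.01 for MYBQKI6 less MYBQKI5, and Dgkb from −0.13 to 0.01 for MYBQKI6 less MYBtr. The cause was not tested.

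The counts over all genes moved more. With MYBtr, 317 genes were called, 37 with only the compared groups in the fit, 1383 with the block, and 52 (without MYBtr pool 2) to 456 (without MYBtr pool 3) leaving out replicates. With MYBQKI5 these were 46, 18 (brightest probe set), 609 and 11 to 32, and with MYBQKI6 177, 27, 1017 and 23 to 244. Low signal limits Dgke and Dgkq, with 5 of 17 and 3 of 19 probe sets dim. Dim means a pool-set mean below percentile 25 of all probe sets (3.84), and background itself was not measured. Dgkz had 3 of 30 dim, Dgki 2 of 30, Dgkb 1 of 25 and Dgkh 1 of 22. In the suppression set the Dgki probe set 17465878 averaged 1.76 with Qk suppressed, so low signal may limit Dgki there.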
